A study of Homo sapiens with 10 samples.

Results

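The coagulation and fibrinolysis genes described here are 31 of the 32738 genes in the count table, taken by gene symbol from a list of clotting factors, their cofactors and inhibitors, the plasminogen system and the vitamin K enzymes. HepG2, a human hepatoma line that secretes many plasma proteins, was either kept in regular growth medium for 17 h (control) or given medium with 2 µg/ml tunicamycin for the same time. Tunicamycin blocks N-linked glycosylation in the endoplasmic reticulum (ER) and causes ER stress. Each condition had 5 libraries, numbered 1 to 5, from experiments on separate days. Libraries of the same number were taken to share a day. The cells came from 1 tumour-derived line grown alone, with no vessel wall, platelets or other liver cells present.

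Blood clotting is a cascade in which inactive proteases, most of them made by hepatocytes, activate each other until thrombin turns fibrinogen into fibrin. Several of these proteases need vitamin K-dependent carboxylation in the ER, and most members are secreted glycoproteins that pass through the compartment that tunicamycin disturbs. Fibrinolysis dissolves the clot through plasmin, and inhibitors such as tissue factor pathway inhibitor, protein C and its cofactor protein S limit the cascade.

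The sequencing read 3′ ends of mRNAs, so that a transcript gives about 1 read whatever its length, and a count is not divided by length. Totals were 4242538 to 4888292 counts in control and 2234682 to 5029864 in tunicamycin libraries, with the lowest total in tunicamycin replicate 5. Mitochondrial genes took 22.7% to 25.2% of control counts and 18.3% to 28.8% of tunicamycin counts, with the highest share in tunicamycin replicate 4. That library also had the lowest scaling factor between libraries (TMM), 0.892. Hepatocyte markers were present: all 10 fixed markers passed the filter on low counts, albumin (ALB) at 11214 ± 1761 normalized counts in control and 11519 ± 1676 in tunicamycin (SD, n = 5) and alpha-fetoprotein (AFP) at 11415 ± 5128 and 10209 ± 1509. The log2 fold changes of these 10 markers ran from -1.02 to 0.49, with 5 lower and 1 higher. All 8 ER stress markers were higher with tunicamycin, by 0.80 to 3.76 on the log2 scale, among them the chaperone gene HSPA5 by 2.97 and the transcription factor gene DDIT3 by 1.42. Of 6 endothelial markers in the table none passed the filter, and KDR, TEK, ERG and EMCN had no count in any library. VWF had 1 count, and CDH5 had 18 counts, all in tunicamycin replicate 4. Of 7 stellate cell markers, ACTA2 alone passed and was not called, at 138 ± 26.6 normalized counts in control and 106 ± 44.2 in tunicamycin. Of 7 leukocyte markers CD68 was lower (log2 fold change -0.83, adjusted p = 0.0319). LYZ was abundant, at 1346 ± 201 normalized counts in control and 1694 ± 324 in tunicamycin, and was not called. CD14 did not pass the filter, and PTPRC, MARCO, CD163 and VSIG4 had no count.

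Of the 31 members, 24 passed the filter on low counts and were tested, 5 had no count in any library (F9, F13B, PLG, TFPI2 and THBD) and 2 had too few counts (HRG and KLKB1). By edgeR's quasi-likelihood test with Benjamini-Hochberg adjustment (threshold 0.05), 12 members were lower with tunicamycin and 1 was higher, and 11 passed the test in neither direction. The lower members were 38.7% of the 31 and 50% of the 24 tested, whereas 16.6% of the 12733 genes tested were lower. The only higher member was F7, whereas 17.6% of all genes tested were higher. The median log2 fold change over the tested members was -0.39, and over all tested genes -0.0033. A call is easier to reach at high counts. Among the 5651 genes that averaged 100 or more normalized counts, 23.2% were lower and 24.2% higher, and of the 14 members at that level 9 were lower, 1 was higher and 4 were not called. All 31 members together took 0.301% to 0.351% of the counts of a control library and 0.229% to 0.244% of those of a tunicamycin library. In such bulk samples, fewer cells that express a gene and less RNA of it per cell cannot be told apart. The summed level of the hepatocyte markers fell too, from 21250 to 24670 counts per 1000000 in control libraries to 14380 to 17390 in tunicamycin libraries, and its part in the members' values was not tested.

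**Figure D1:**
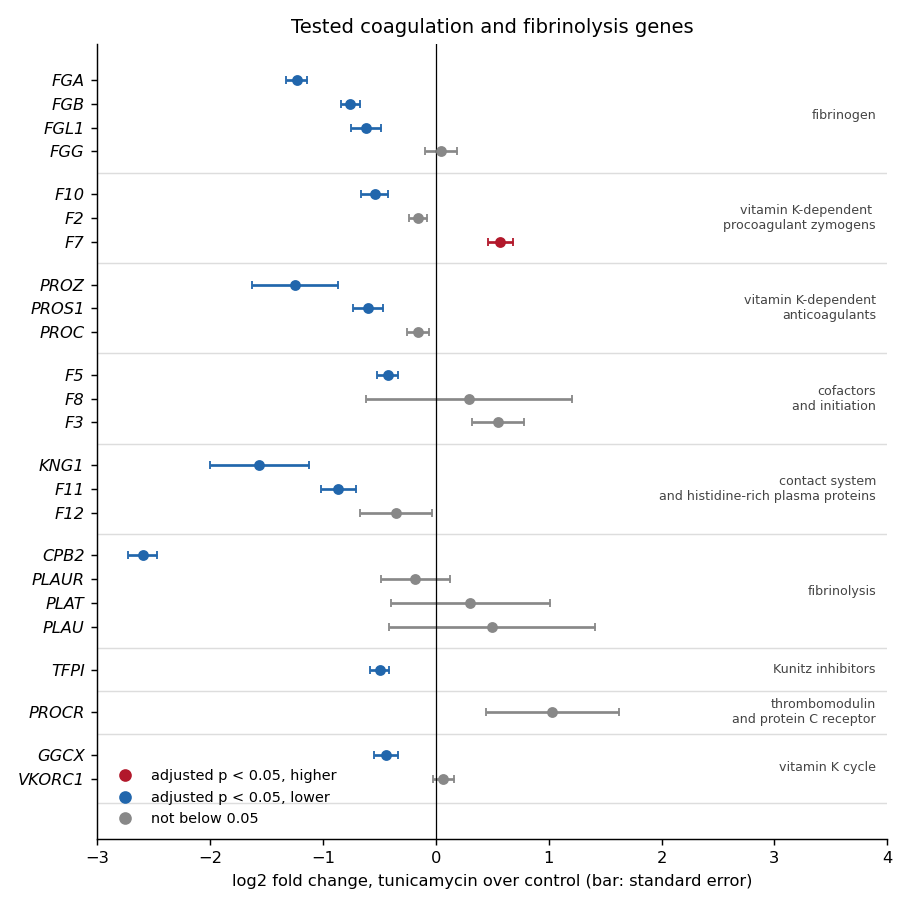
Log2 fold change of each of the 24 tested members, tunicamycin over control (x axis), with its standard error as a bar, grouped by role. Blue points are the 12 lower members, red is the 1 higher member (F7) and grey points are the 11 that did not pass; CPB2 lies farthest to the left at -2.60.

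Of the 6 genes shown here, all but CPB2 lie beside another of them in the genome. The 3 fibrinogen chain genes lie within 49957 bp on chromosome 4 (GRCh38), FGB at 154563011 to 154572807 on the plus strand, FGA at 154583126 to 154590742 on the minus strand and FGG at 154604134 to 154612967 on the minus strand. F7 and F10 follow each other on the plus strand of chromosome 13, at 113105788 to 113120685 and 113122799 to 113149529, with 2113 bp between them. CPB2 is elsewhere on chromosome 13, at 46053186 to 46105033 on the minus strand. The 150 bases before the RefSeq start of these 6 genes (GRCh38, 5′ to 3′) are shown. FGG and F7 changed differently from their neighbours, as given further on, and CPB2 had the largest change of any tested member. FGA and FGB were both lower, as were F10 and PROZ, which lies 9118 bp after F10. Any part of these sequences in the changes was not tested. Capitals mark the match to GTTAATNAT, 9 letters of the binding site of the liver factor HNF1.
FGB (chr4:154562861-154563010, plus strand): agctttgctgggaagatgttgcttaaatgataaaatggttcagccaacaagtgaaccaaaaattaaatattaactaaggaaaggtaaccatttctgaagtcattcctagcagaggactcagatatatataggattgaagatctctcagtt
FGA (chr4:154590743-154590892, minus strand): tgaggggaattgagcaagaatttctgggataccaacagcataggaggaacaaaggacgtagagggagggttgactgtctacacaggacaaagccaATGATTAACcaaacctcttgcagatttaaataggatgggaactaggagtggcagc
FGG (chr4:154612657-154612806, minus strand): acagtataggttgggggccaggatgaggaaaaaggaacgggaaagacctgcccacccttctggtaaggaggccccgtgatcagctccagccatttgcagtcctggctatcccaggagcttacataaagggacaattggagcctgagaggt
F7 (chr13:113105641-113105790, plus strand): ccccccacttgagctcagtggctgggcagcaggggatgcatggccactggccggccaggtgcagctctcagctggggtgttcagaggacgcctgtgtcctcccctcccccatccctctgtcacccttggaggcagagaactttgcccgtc
F10 (chr13:113122649-113122798, plus strand): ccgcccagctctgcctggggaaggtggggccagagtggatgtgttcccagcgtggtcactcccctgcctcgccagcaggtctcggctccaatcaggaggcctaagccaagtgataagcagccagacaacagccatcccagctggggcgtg
CPB2 (chr13:46105034-46105183, minus strand): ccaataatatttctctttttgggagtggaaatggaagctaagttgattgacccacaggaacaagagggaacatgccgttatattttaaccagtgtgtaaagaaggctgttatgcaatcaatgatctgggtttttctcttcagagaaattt
The capitals in FGA are the reverse complement of that motif, 55 to 47 bases before the start. Both strands were searched from 250 bases before to 50 bases after the start, in windows found for 28 of the 31 members. GTTAATNAT was in 0.792% of 35116 RefSeq promoter windows and in those of 3 members, FGA, F13B and PLG, the latter 2 without a count in these libraries. The AP-1 site TGAGTCA, or its complement TGACTCA, was in 4.95% of all windows and in those of F3 and PLAUR. No member's window held TGATGNAAN, a form of the composite site of CHOP and ATF4, found in 3.61% of all windows, or the ER stress element (CCAAT and CCACG 9 bases apart), found in 0.0769%. These are exact matches of letters, not evidence of binding, and a window without one may still hold a variant of the site. The FGB stretch aatattaac, for example, departs from the reverse complement of GTTAATNAT by a letter.

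Fibrinogen is built from 3 chains, Aα, Bβ and γ, which are encoded by FGA, FGB and FGG and joined in the ER into 1 hexamer with a pair of each. The chains did not change alike: FGA and FGB were lower with tunicamycin and FGG was not called. FGA (ENSG00000171560) had 1644, 1329, 1436, 1396 and 1449.5 normalized counts in the control libraries, in the order of their numbers, and 711, 608, 625, 578 and 553 in the tunicamycin libraries; the same order is kept for the other genes. Every tunicamycin library lay far below every control library. Its log2 fold change was -1.23 (SE 0.09, adjusted p = 5.19e-09), which is 42.5% of the control level. FGB (ENSG00000171564) had 2666, 2648, 3127, 3125 and 3182 normalized counts in control and 1654, 1709, 1799, 1894 and 1673 in tunicamycin. Again the groups did not overlap, and FGB fell to 59.2% of control (log2 fold change -0.76, SE 0.09, adjusted p = 1.58e-06). FGB had the highest normalized count of all members in control cells, followed by F2. FGG (ENSG00000171557) had 1434, 1463, 1874, 2117 and 1922 normalized counts in control and 1187, 1870.5, 1801, 2135 and 2106 in tunicamycin. The groups overlapped almost completely, with replicate 1 the lowest library in each, and 3 of 5 pairs were higher. The log2 fold change of FGG was 0.04 (95% interval -0.25 to 0.34, adjusted p = 0.837), so that a fall as large as that of FGA or FGB lies outside the interval.

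Ratios of the chains within a library need no scaling between libraries. FGG counts per FGA count were 0.872, 1.10, 1.31, 1.52 and 1.33 in control and 1.67, 3.07, 2.88, 3.69 and 3.81 in tunicamycin, a 2.42-fold rise of the geometric mean (log2 difference 1.27). FGG per FGB rose from between 0.538 and 0.677 to between 0.718 and 1.26, a 1.73-fold rise (log2 difference 0.79). FGB per FGA rose from between 1.62 and 2.24 to between 2.33 and 3.27, a 1.399-fold rise (log2 difference 0.48). In all 3 ratios every tunicamycin library was above every control library. Each had an exact two-sided permutation p of 0.00794, the smallest that 5 against 5 libraries allow, and 0.00794 after Benjamini-Hochberg adjustment over the 4 ratios tested. The chain ratios are not independent results, since FGG per FGA is FGG per FGB times FGB per FGA. Permuted within the 5 pairs of libraries of the same number, the smallest p possible is 0.0625, so that no ratio could pass 0.05 there. Each of the 3 was higher in 5 of 5 pairs, with that p. The make-up of the fibrinogen counts moved accordingly, with FGG at 25.0% to 31.9% in control and 33.4% to 48.6% in tunicamycin libraries, and FGA at 21.0% to 28.6% and 12.6% to 20.02%. The 3 chains together took 0.128% to 0.158% of all counts in control and 0.0836% to 0.0961% in tunicamycin libraries.

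**Figure D2:**
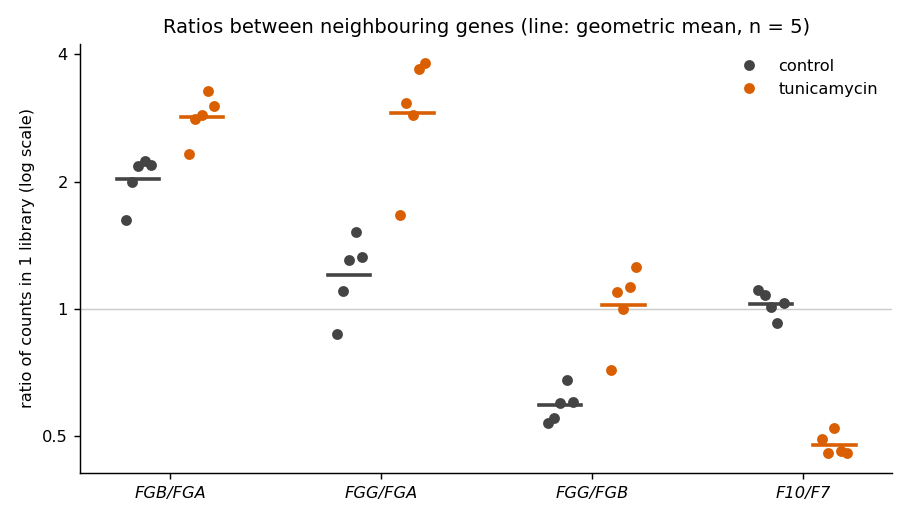
Ratio of the counts of 2 genes in the same library (y axis, log scale), for the 3 fibrinogen chain pairs and F10/F7; each point is 1 of 5 libraries per condition and each line the geometric mean. The control and tunicamycin points of each ratio do not overlap: the chain ratios are higher with tunicamycin, and F10/F7 is near 1 in control and at 0.455 to 0.522 in tunicamycin libraries.

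FGL1, a secreted liver protein with a fibrinogen-like domain that is not part of the clot, was also lower. It had 235, 196, 210.0, 254 and 264 normalized counts in control and 122, 163, 141, 199 and 129 in tunicamycin. All 5 pairs were lower, but tunicamycin replicate 4 reached just above the lowest control library. The log2 fold change was -0.62 (SE 0.13, adjusted p = 0.0013).

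Of the 4 vitamin K-dependent procoagulant zymogens, 1 was higher (F7), 1 lower (F10), 1 not called (F2) and 1 without counts (F9). F7 encodes factor VII, the protease that starts the cascade with tissue factor, and its normalized counts were 144, 157, 143, 142 and 159.6 in control and 216, 227, 201, 267 and 196 in tunicamycin. Every tunicamycin library was above every control library, and the log2 fold change was 0.57 (SE 0.11, adjusted p = 4.09e-04), or 149% of control. F10, the next gene along the chromosome, encodes factor X, which factor VIIa activates. It had 159, 169, 144, 132 and 165 normalized counts in control and 106, 103, 105, 122 and 88.8 in tunicamycin. Here every tunicamycin library was below every control library (log2 fold change -0.54, SE 0.12, adjusted p = 0.00157). Control cells therefore held about as many F10 as F7 counts, 0.925 to 1.11 per library, and tunicamycin-treated cells fewer, 0.455 to 0.522. The ratio fell to 0.463 of its control value (log2 difference -1.11, exact two-sided permutation p = 0.00794, adjusted p = 0.00794). It fell in 5 of 5 pairs (exact p within pairs 0.0625, the smallest possible). With F7 higher and F10 lower in every tunicamycin library, the ratio had to separate the groups, so its p is not further support. The last exon of F10 overlaps a gene on the opposite strand (ENSG00000283828), and whether counting used the strand is not given in the sources used here.

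F2, which encodes prothrombin, the precursor of thrombin, was the most abundant zymogen and changed little. It had 2577, 2559, 2825, 2691 and 2972 normalized counts in control and 2558, 2450.0, 2406, 2528 and 2249.8 in tunicamycin. All tunicamycin libraries lay below all control libraries, the highest just under the lowest control. The difference was small, at 89.5% of control, and was not called (log2 fold change -0.16, 95% interval -0.33 to 0.01, adjusted p = 0.13). With scaling by library size only it was called (-0.24, adjusted p = 0.0409). F9, which encodes factor IX, had no count in any library. A count of 0 in a library taken alone allows up to 3 counts there, for counting error only, and the libraries together allow less.

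**Figure D3:**
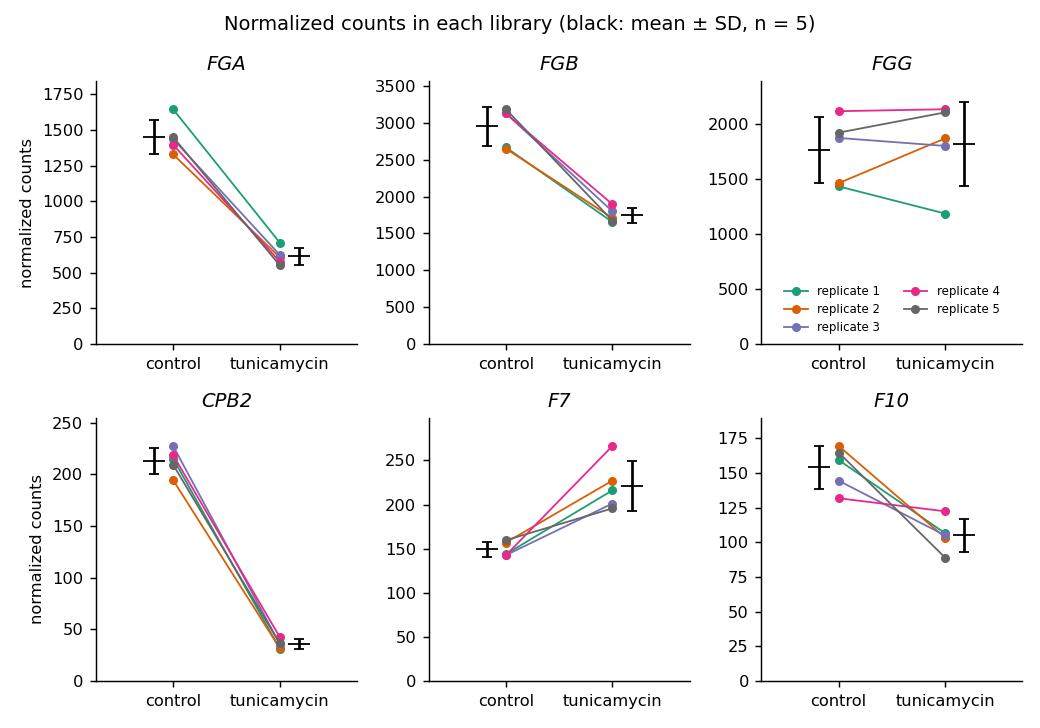
Normalized counts (y axis, from 0) of FGA, FGB, FGG, CPB2, F7 and F10 in each control and tunicamycin library; lines join libraries of the same replicate number and black marks are the mean ± SD (n = 5). FGA, FGB, CPB2 and F10 fall in every pair, F7 rises in every pair, and the FGG groups overlap.

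Of the vitamin K-dependent anticoagulants, PROS1 and PROZ were lower and PROC was not called. PROS1 encodes protein S, the cofactor of activated protein C. It had 158, 199.7, 192, 238 and 239.9 normalized counts in control and 121, 141, 130.4, 163 and 121 in tunicamycin. All 5 pairs were lower, with tunicamycin replicate 4 just above control replicate 1 (log2 fold change -0.60, SE 0.13, adjusted p = 0.00147). PROZ encodes protein Z, a cofactor for the inhibition of factor Xa, and lies next to F10. It was scarce, at 17.2, 7.13, 11.4, 20.6 and 27.4 normalized counts in control and 8.45, 5.95, 5.67, 8.24 and 6.05 in tunicamycin. The control libraries were widely spread, and the call (log2 fold change -1.25, SE 0.38, adjusted p = 0.0158) was lost without control replicate 5 (-1.01, adjusted p = 0.0581) and with DESeq2 and the replicate block (-1.15, adjusted p = 0.0594). PROC, which encodes protein C itself, had 691 to 929 normalized counts in control and 616 to 805 in tunicamycin. These overlapped, and the log2 fold change was -0.15 (95% interval -0.36 to 0.05, adjusted p = 0.234).

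Among the cofactors and the initiator, F5 was lower. Factor V, the cofactor of factor Xa, is encoded by F5, which had 396, 378, 482, 475 and 478 normalized counts in control and 339, 348, 306, 342 and 303 in tunicamycin. The groups did not overlap (log2 fold change -0.43, SE 0.10, adjusted p = 0.00183). F3 encodes tissue factor, the membrane receptor that starts clotting. It had 18.1, 15.2, 15.7, 19.7 and 22.4 normalized counts in control and 22.0, 22.8, 34.0, 28.9 and 26.2 in tunicamycin. All 5 pairs were higher, but the groups touched and the difference did not pass (log2 fold change 0.55, SE 0.23, adjusted p = 0.0708). F8, which encodes factor VIII and is made mainly by endothelial cells, had at most 4 counts in a library, and no difference was detectable at this depth (adjusted p = 0.832).

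The contact system starts clotting on charged surfaces. F11, which encodes factor XI, had 87.8, 69.6, 78.7, 81.5 and 74.2 normalized counts in control and 47.3, 52.6, 42.5, 35.7 and 32.3 in tunicamycin. The groups were well apart, with tunicamycin at 55.0% of control (log2 fold change -0.86, SE 0.16, adjusted p = 3.01e-04). KNG1, which encodes high molecular weight kininogen, the carrier of factor XI and the source of bradykinin, had 6.03, 8.03, 15.7, 14.3 and 16.3 normalized counts in control and 6.76, 2.98, 2.83, 2.75 and 4.04 in tunicamycin. It was lower in 4 of 5 pairs (log2 fold change -1.56, SE 0.44, adjusted p = 0.00897), and the call was lost after thinning to the depth of the smallest library (-1.34, adjusted p = 0.0792). F12, which encodes factor XII, had 12.2 ± 2.70 normalized counts in control and 9.39 ± 2.46 in tunicamycin (SD, n = 5) and was not called (log2 fold change -0.35, SE 0.32, adjusted p = 0.427). KLKB1, for prekallikrein, had 7 counts over all 10 libraries, and HRG, for histidine-rich glycoprotein, had 3, all of them in tunicamycin replicate 4. F13B, for the carrier subunit of factor XIII, had none.

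In fibrinolysis, CPB2 had the largest change of any tested member in size. It encodes the carboxypeptidase TAFI, which thrombin activates and which protects fibrin from plasmin by removing the lysines that plasminogen binds. CPB2 (ENSG00000080618) had 215, 194, 227, 219 and 209 normalized counts in control and 31.2, 31.8, 35.9, 42.6 and 36.3 in tunicamycin. The libraries of each group lay close together and the groups far apart, at 213 ± 12.3 and 35.6 ± 4.56 (SD, n = 5), so that 16.5% of the control level was left. The log2 fold change was -2.60 (SE 0.13, adjusted p = 1.81e-11), and over all 19 alternatives it stayed between -2.68 and -2.54. The antisense gene CPB2-AS1, which overlaps CPB2 but not its last exon, had 9.53 ± 2.02 and 12.3 ± 2.82 normalized counts and was not called (adjusted p = 0.386).

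The plasminogen activators, whose effect TAFI opposes, were scarce in these cells, and no change was detectable in them. PLAT, for tissue plasminogen activator, had at most 11 counts in a library (adjusted p = 0.772), and PLAU, for urokinase, at most 3 (adjusted p = 0.711). The urokinase receptor gene PLAUR had 20.8 ± 6.84 normalized counts in control and 19.05 ± 7.79 in tunicamycin (log2 fold change -0.18, 95% interval -0.82 to 0.46, adjusted p = 0.68). PLG, the gene of plasminogen and a typical product of liver, had no count in any library.

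TFPI encodes tissue factor pathway inhibitor, a Kunitz protein that blocks factor Xa and the complex of tissue factor with factor VIIa. It had 1764, 1701, 1932, 2019 and 2053 normalized counts in control and 1324, 1439, 1349, 1338 and 1253 in tunicamycin. The groups did not overlap, and TFPI fell to 70.8% of control (log2 fold change -0.50, SE 0.08, adjusted p = 1.36e-04). Thus of the genes that act at the first step, the inhibitor TFPI was lower, the protease gene F7 was higher, and the receptor gene F3 did not pass the test. TFPI2, a related inhibitor, and THBD, for the thrombin receptor thrombomodulin of endothelium, had no counts. PROCR, for the receptor of protein C, had at most 10 counts in a library and was not called (log2 fold change 1.03, 95% interval -0.21 to 2.28, adjusted p = 0.191).

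The vitamin K cycle serves all Gla-containing members. GGCX encodes the carboxylase that makes Gla residues in the ER. It had 203, 241, 267, 247 and 258 normalized counts in control and 153, 183, 177, 202 and 186 in tunicamycin. Each tunicamycin library was below each control library, by a narrow margin between the nearest (log2 fold change -0.44, SE 0.11, adjusted p = 0.00367). Its last exon overlaps MAT2A on the other strand, which was not called (log2 fold change 0.14, adjusted p = 0.469). VKORC1, whose last exon overlaps ENSG00000255439 on the same strand, encodes the reductase that recycles vitamin K and is the target of warfarin. It had 584 to 676 normalized counts in control and 568 to 806 in tunicamycin, which overlapped, with a log2 fold change of 0.07 (95% interval -0.13 to 0.27, adjusted p = 0.629).

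Across the 24 tested members, 9 had every tunicamycin library below every control library, against 11.9% of all tested genes, and 1 had every tunicamycin library above, against 11.7%. The 9 were FGA, FGB, F2, F10, F5, F11, CPB2, TFPI and GGCX, and the 1 was F7.

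Further genes of haemostasis are given in 5 lists, beside which the shares over all tested genes are 17.6% higher and 16.6% lower. Each list has 7 to 10 tested genes, and no list was tested against the members or against all genes. The serpins that inhibit clotting and fibrinolysis were split: of 9 listed, 7 were tested, 2 were higher and 3 lower, with a median log2 fold change of -0.23. SERPINC1, which encodes antithrombin, rose from 216 ± 46.7 to 633 ± 48.3 normalized counts (log2 fold change 1.55, SE 0.12, adjusted p = 1.36e-08), and SERPINE2, for protease nexin-1, rose from 16.1 ± 3.95 to 48.9 ± 7.70 (1.59, SE 0.21, adjusted p = 1.34e-05). SERPIND1, which encodes heparin cofactor II, fell from 222 ± 19.5 to 56.4 ± 10.9 (-1.98, SE 0.14, adjusted p = 2.15e-09). SERPINA5, for the protein C inhibitor, fell from 2095 ± 173 to 739.7 ± 50.3 (-1.503, SE 0.09, adjusted p = 2.52e-10). SERPINF2 (antiplasmin), named after its value was seen, was the third lower gene at -0.85.

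All 10 genes for the secretion and processing of clotting factors were tested, 3 were higher and none was lower in edgeR's test at an adjusted or an unadjusted p under 0.05, and the median was 0.25. MCFD2, which with LMAN1 carries factors V and VIII from the ER to the Golgi, rose from 994 ± 113 to 2175 ± 118 normalized counts (log2 fold change 1.13, SE 0.09, adjusted p = 1.96e-08). LMAN1 itself, named after its value was seen, was higher by 0.44 (adjusted p = 5.76e-04), so that both cargo receptor genes rose while F5 fell. ASPH, the hydroxylase of aspartate and asparagine in EGF-like domains, rose by 0.81 (adjusted p = 1.58e-06).

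Of 13 genes of vitamin K metabolism and other Gla proteins, 9 were tested, 3 higher and 2 lower, with a median of 0.24. VKORC1L1, the paralogue of VKORC1, rose from 176 ± 29.1 to 294 ± 45.8 normalized counts (log2 fold change 0.74, adjusted p = 2.09e-04) and AIFM2, which reduces vitamin K, from 503 ± 9.88 to 790.5 ± 54.1 (0.65, adjusted p = 3.61e-06). CYP4F2, which breaks vitamin K down, fell from 33.5 ± 11.9 to 18.4 ± 4.19 (-0.88, adjusted p = 0.0187). Named after their values were seen, NQO1 was higher by 0.48 and PRRG4, at under 20 normalized counts, was lower at -1.71. Of 13 other plasma proteins 8 were tested, 1 higher and 2 lower, with a median of -0.33. APOH (beta-2-glycoprotein I) was lower at -0.72 (adjusted p = 9.55e-07) and A2M (alpha-2-macroglobulin) at -0.48 (adjusted p = 1.66e-04). C4BPA, for the alpha chain of C4b-binding protein, was higher at 0.42 (adjusted p = 0.00842). Of 13 genes for cell surface receptors and associated proteins 10 were tested, 3 were higher and none was lower by the same test at either p. The median was 0.18. F2RL1, which encodes the protease-activated receptor PAR2, a receptor cleaved by factors VIIa and Xa, rose from 5.58 ± 2.72 to 91.5 ± 48.4 normalized counts (log2 fold change 3.94, SE 0.43, adjusted p = 1.04e-06). The tunicamycin libraries ranged widely, from 25.3 in replicate 1 to 145 in replicate 5, all above the 2.62 to 9.86 of control. ANXA5 was higher by 0.65 (adjusted p = 1.96e-04), and F2R, the thrombin receptor gene, named after its value was seen, by 0.56.

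**Figure D4:**
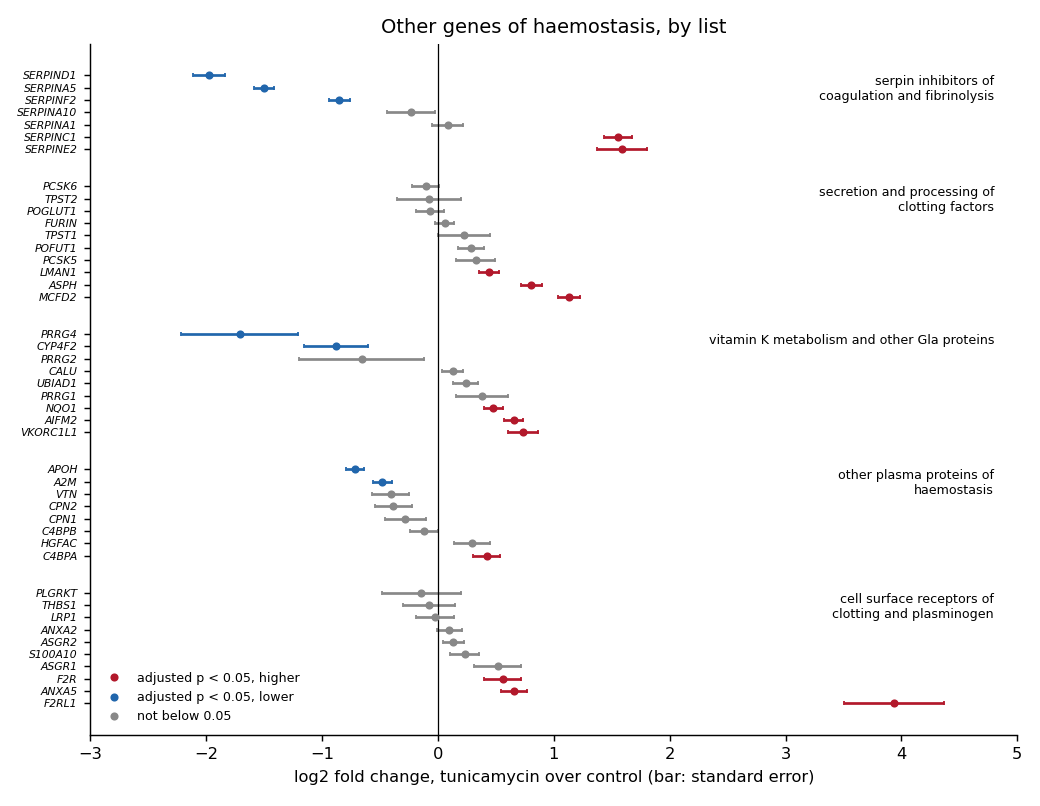
Log2 fold change with standard error (x axis) of the tested genes of 5 further haemostasis lists, tunicamycin over control; red is higher, blue lower and grey not called. The serpin list is split between both directions. The list of secretion genes and that of receptors and associated proteins hold no blue point, and F2RL1 lies farthest to the right at 3.94.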

How the data were processed

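QuantSeq 3′ mRNA libraries (Lexogen, FWD) of HepG2 cells were analysed, 5 control and 5 tunicamycin. Per the study's methods, the nf-core pipeline for RNA-Seq was run at its defaults on hg19 with Ensembl annotation, and the authors deposited raw counts per gene without normalization. The aligner, the counting program and the strand setting are not given in the sources used here. All sample columns were used and matched to libraries by name. Genes were filtered with filterByExpr (minimum count 2, minimum total 10), as in the study's methods, libraries were scaled by TMM, and 12733 genes were tested by the quasi-likelihood method of edgeR 4.0.16 in R 4.3.3, with condition as the only term and Benjamini-Hochberg adjustment at 0.05 over all genes tested. The study used DESeq2. The test was checked on simulated data that had the same dispersion for every gene, with large changes placed only in genes that were not scarce. That check does not cover calls on scarce genes or small changes. A normalized count is the count over its library's TMM-scaled size, times the mean scaled size of all libraries, 4367372. Intervals use the test's degrees of freedom, and the SE is the size of the log2 fold change divided by the square root of F. Ratios between members used a pseudocount of 0.5 and an exact permutation test; KNG1/HRG and KLKB1/F11 were planned too but had a gene with too few counts in nearly every library.

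The members and lists were chosen with earlier results of these data known. All 31 members are named; of each further list at most 2 higher and 2 lower genes, those with the largest changes at 20 or more normalized counts on average, unless stated otherwise. Replicate numbers pair libraries because, per the labels, replicates come from separate days. That libraries of the same number share a day was inferred from the number. The correlation of paired deviations from the group means was 0.33, 0.0026, 0.091, 0.15 and 0.11 in order of replicate number, across 9711 genes. Totals of 2234682 to 5029864 counts limit scarce genes, and limits for a count of 0 cover counting error only. Alternatives were DESeq2 1.42.0, other scaling, filters, thinning, the replicate block and leaving out each library; 3 were chosen after seeing the data, DESeq2 with the block, leaving out tunicamycin replicates 4 and 5, and permuting the ratios within pairs. Positions are from GENCODE on GRCh38, with 31 of 31 members matched by Ensembl identifier, and promoters from RefSeq on GRCh38; no coordinate of hg19 is given. Of the tested members, 13 have exons that overlap a gene on the opposite strand. In 6 (F10, F11, KNG1, PLAU, GGCX and VKORC1) the last exon overlaps another gene. For VKORC1 alone that gene lies on the same strand, which no strand setting would separate. Protein sequences were not analysed here, and some results for genes of the further lists are not reported here.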

Additional observations from a re-analysis of the deposited data

Results flagged for a closer look

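In PLAT, the gene of tissue plasminogen activator, control replicate 3 stood apart from the other control libraries, at 9.62 normalized counts (11 counts) against 0.892 to 2.69. The gap to the nearest library was 0.794 of the whole range, above Dixon's critical value of 0.71 for 5 values. In all, 62 groups of 5 libraries were looked at and 1 was flagged, where chance flags about 1 in 20, or 3.1 of these. PLAT was not called in any setting in which it was tested.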

How the results depend on the processing

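The count of higher members was 1 under each of 19 alternatives, and the count of lower members was 10 to 13, against 12 as reported (11 to 12 when each library was left out in turn). With the replicate block, which pairs libraries of the same number, 12 members were lower and 1 was higher. The block in edgeR's test changed no member's call. Without tunicamycin replicates 4 and 5, the libraries of lowest total, 12 were lower and 1 was higher. The calls that changed were those of F2 (called lower with scaling by library size only), PROZ and KNG1, with the values given beside them. Over 12 alternatives (another pseudocount, thinning and leaving out each library) the 4 ratios kept their direction and call, FGG/FGA at 1.16 to 1.47 and F10/F7 at -1.15 to -1.08 on the log2 scale. With the replicate block, an exact permutation within pairs added after seeing the data, the log2 differences were 0.48 (FGB/FGA), 1.27 (FGG/FGA), 0.79 (FGG/FGB) and -1.11 (F10/F7), and each had p = 0.0625, the smallest that 5 pairs allow, so that no call was possible. Scaling by library size only moved the median of all genes to -0.08 and turned 2237 higher and 2116 lower genes into 1774 and 2570; 13 members were then lower and 1 higher. Without the filter 26 members were tested and the counts were 12 and 1, and with the default minimums 18 were tested and 10 were lower. FGG was called under no alternative, and its log2 fold change lay between -0.11 and 0.17. Depth limits the members with few counts (F8, PLAT, PLAU, PROCR, F12, PROZ and KNG1), where changes smaller than their intervals cannot be seen.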
